A study of Mus musculus with 12 samples.

Results

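The Cyp2c family is a group of cytochrome P450 genes, and 9 of its mouse members are described here: Cyp2c23, Cyp2c29, Cyp2c37, Cyp2c38, Cyp2c39, Cyp2c50, Cyp2c54, Cyp2c55 and Cyp2c70. They were chosen by gene symbol in the platform annotation, and each had 1 probe set, so that 9 of the 12393 genes named on the array were members. RNA of liver cells from C57BL/6N males, aged 12 weeks, was hybridised to Affymetrix 3′ arrays. The groups, of 3 arrays each, were hepatocytes of mice given phenobarbital in the drinking water (50 mg/kg per day for 14 days), hepatocytes of mice given water alone, and mesenchymal cells of phenobarbital mice and of water mice. The labels do not say how many animals stood behind an array, and every p-value therefore reflects sample-to-sample spread, which may be technical. Levels are given as log2 RMA expression. A difference is phenobarbital minus water (or mesenchymal cells minus hepatocytes) on that scale. SE is the standard error of a difference.

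Enzymes of the Cyp2c family sit in the endoplasmic reticulum, where they oxidise drugs, steroids and fatty acids with electrons passed on by P450 oxidoreductase. Many of them convert arachidonic acid to epoxyeicosatrienoic acids, lipid mediators that soluble epoxide hydrolase breaks down. In liver, phenobarbital activates the nuclear receptor CAR, and several Cyp2c genes are known targets of CAR and of its relative PXR. In the RefSeq gene table (GRCm38.p6) all 15 protein-coding Cyp2c genes lie on chromosome 19. The first 14 of them follow each other with no other coding gene in between, from Cyp2c55 at one end to Cyp2c70 at the other. Cyp2c23, formerly called Cyp2c44, stands apart, with 52 coding genes between it and Cyp2c70. Close sequence relatives can share signal on an array, and probe sequences were not used here, so signal of one member cannot be told from that of a near relative.

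Some arrays stood apart from the rest of their group before any comparison was made. The water arrays numbered 1 differed from the others in clock genes: Dbp, a transcription factor driven by the clock, had 6.21 on the hepatocyte array concerned, against 11.87 and 11.60 in the other water hepatocytes, and 6.52 on the mesenchymal array concerned, against 11.80 and 11.86. Hepatocyte transcripts were present in the mesenchymal arrays, and most of all in phenobarbital array 1, where the mean of 16 hepatocyte markers was 10.66. The other mesenchymal arrays had 9.59 and 9.38 with phenobarbital and 8.96, 9.87 and 9.72 with water. Each of 12 macrophage and 15 sinusoidal endothelial markers exceeded the 40th percentile of the array on at least 1 mesenchymal array, while 4 of 12 stellate and fibroblast markers (Col1a1, Pdgfrb, Acta2 and Hand2) stayed at or below it on all 6 mesenchymal arrays. That percentile, between 6.54 and 6.68, was also the level a gene had to exceed on at least 3 arrays to be tested.

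In hepatocytes, phenobarbital was compared with water to see which members the drug moved. Cyp2c55 and Cyp2c29 rose. Cyp2c37, Cyp2c50 and Cyp2c54 were higher in every phenobarbital array than in any water array but did not pass over all genes. For Cyp2c23, Cyp2c38, Cyp2c39 and Cyp2c70 the groups overlapped. In limma 2 members, both higher, had an adjusted p (Benjamini-Hochberg, all genes tested) under 0.05. Of the 8118 genes tested 0.0493% passed, 0.037% as higher and 0.0123% as lower. The groups did not overlap in 5 of the 9 members, all of them higher with phenobarbital, where 15.1% of the genes tested did not overlap, 6.92% higher and 8.14% lower. Cyp2c39 was the member that was not tested. Over the 8 tested members the median difference was 1.30, beside −0.0038 over all genes tested.

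**Figure D1:**
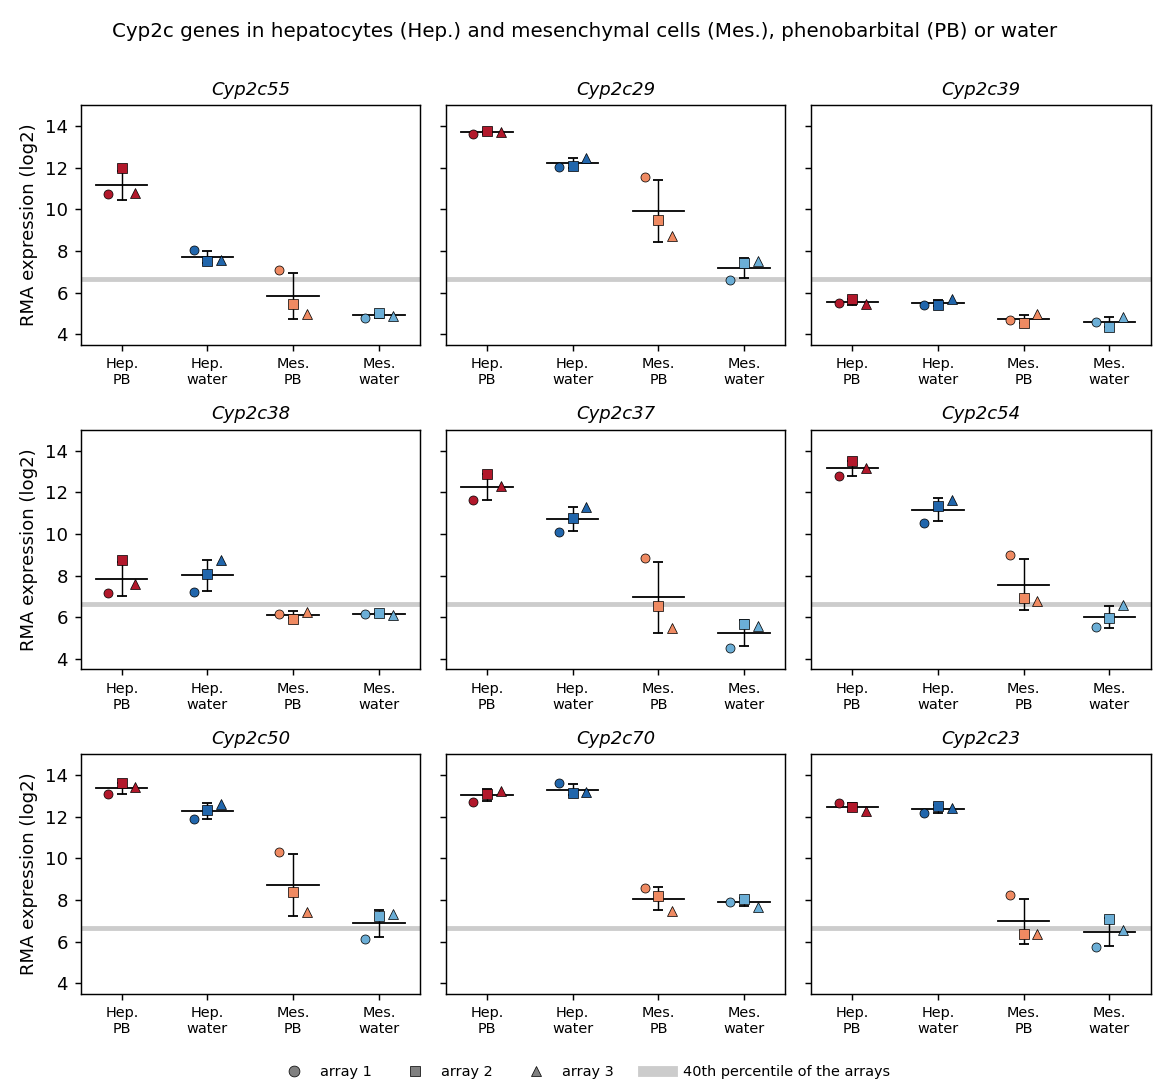
Log2 RMA expression of the 9 Cyp2c genes in 4 groups of 3 arrays: phenobarbital and water hepatocytes, then phenobarbital and water mesenchymal cells. Points are single arrays, the bar is the group mean, whiskers are 1 SD and the grey band is the 40th percentile of the arrays. The phenobarbital hepatocytes lay above the water hepatocytes without overlap for Cyp2c55, Cyp2c29, Cyp2c37, Cyp2c54 and Cyp2c50.

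Cyp2c55, an epoxygenase and hydroxylase of arachidonic acid that is also expressed in the gut, showed the widest separation of the 9. It was at 10.73, 11.97 and 10.80 in phenobarbital hepatocytes, against 8.05, 7.50 and 7.57 in water hepatocytes. The lowest phenobarbital array lay 2.68 above the highest water array, and phenobarbital array 2 stood above the other treated arrays. Taken against the mean of the water arrays, the 3 phenobarbital arrays were 8.12-fold, 19.2-fold and 8.52-fold higher. The fitted difference was 3.46 (SE 0.33), with a 95% interval of 2.70 to 4.22 (limma adjusted p = 0.0213). Both groups lay above the 40th percentile, and none of the arrays was near the top of the scale. Without water array 1 the difference was 3.63 (limma adjusted p = 0.0209).

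Cyp2c29, a major hepatic epoxygenase, had the narrowest spread of the members that separated. Its values were 13.63, 13.77 and 13.72 in phenobarbital hepatocytes, against 12.06, 12.09 and 12.49 in water hepatocytes. The phenobarbital arrays lay within 0.14 of each other and at least 1.14 above any water array. The difference was 1.49 (SE 0.12), with a 95% interval of 1.22 to 1.76 (limma adjusted p = 0.00862). Of 8118 genes ordered by p it ranked number 2 and Cyp2c55 number 3, behind Cyp2b10, the classical CAR target. Differences are compressed towards the top of the array's scale, so the Cyp2c29 value may be too small. Without water array 1 it was 1.41 (limma adjusted p = 0.0176).

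Both calls rested on few arrays. With 1 of the 6 hepatocyte arrays left out at a time, Cyp2c55 passed in 2 of 6 fits, those without water array 1 and without phenobarbital array 2. Cyp2c29 passed in 2 of 6, those without water array 1 and without water array 3. The differences stayed between 3.06 and 3.68 for Cyp2c55 and between 1.41 and 1.63 for Cyp2c29. Their limma adjusted p-values lay between 0.00632 and 0.158 for Cyp2c55 and between 0.00116 and 0.103 for Cyp2c29. In a single fit of all 12 arrays neither passed (limma adjusted p = 0.0651 for Cyp2c55 and 0.432 for Cyp2c29).

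Cyp2c37, Cyp2c54 and Cyp2c50 are neighbours on the chromosome and arachidonic acid oxidases of the liver. Cyp2c54 was at 12.79, 13.51 and 13.18 in phenobarbital hepatocytes, against 10.54, 11.33 and 11.63 in water hepatocytes. Cyp2c37 had 11.61, 12.88 and 12.29 in phenobarbital hepatocytes, against 10.10, 10.76 and 11.28 in water hepatocytes. Cyp2c50 had 13.11, 13.63 and 13.41 in phenobarbital hepatocytes, against 11.89, 12.33 and 12.62 in water hepatocytes. In each of the 3 genes all treated arrays lay above all water arrays, by at least 1.16, 0.33 and 0.49 for Cyp2c54, Cyp2c37 and Cyp2c50. The fitted differences were 1.99 (95% interval 1.33 to 2.66), 1.55 (0.69 to 2.40) and 1.10 (0.65 to 1.56), in the same order. Each interval lay above 0, and none of the 3 passed over all genes, with limma adjusted p-values of 0.146, 0.408 and 0.246. Unadjusted p was under 0.05 for 5 members, these 3 and the 2 that passed, where 8.38% of the genes tested reached it. In all 3 genes water array 1 was the lowest water array, and without it the differences were 1.68, 1.24 and 0.91 (limma adjusted p = 0.0593, 0.479 and 0.213).

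**Figure D2:**
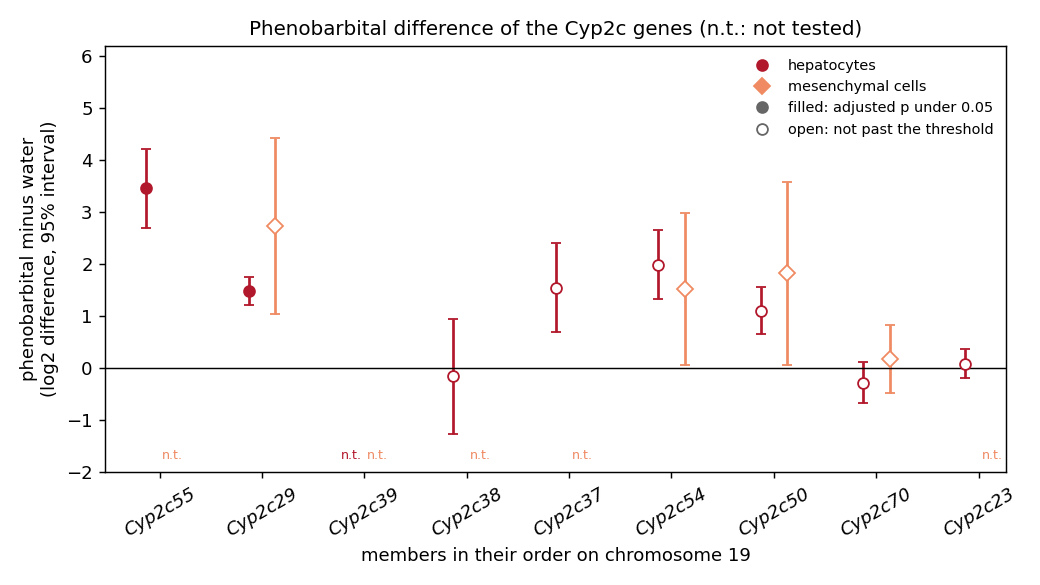
Phenobarbital minus water, as log2 differences with 95% intervals from limma, for hepatocytes (circles) and mesenchymal cells (diamonds), with the members in their order on chromosome 19. Filled symbols passed at an adjusted p under 0.05, which were Cyp2c55 and Cyp2c29 in hepatocytes. The hepatocyte intervals of Cyp2c37, Cyp2c54 and Cyp2c50 also lay above 0, while those of Cyp2c38, Cyp2c70 and Cyp2c23 crossed it.

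The other members gave bounds of different width. Cyp2c23, an epoxygenase of liver and kidney, was at 12.66, 12.45 and 12.27 in phenobarbital hepatocytes, against 12.18, 12.52 and 12.43 in water hepatocytes. The arrays of both groups were interleaved, and the difference of 0.09 had a 95% interval of −0.20 to 0.37 (limma adjusted p = 0.866). At its upper end this allows a rise of 0.37 in array signal. Compression towards the top of the scale may make differences of Cyp2c23 too small. Cyp2c70, the enzyme that makes muricholic acids, the bile acids typical of mice, was at 12.71, 13.12 and 13.26 in phenobarbital hepatocytes, against 13.61, 13.12 and 13.21 in water hepatocytes. Its difference was −0.28, with an interval of −0.68 to 0.11 (limma adjusted p = 0.682), and without water array 1, the highest of its group, −0.14. Both intervals ended below the differences fitted for Cyp2c29 and Cyp2c54.

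Cyp2c38 and Cyp2c39, near relatives of Cyp2c29 that also form epoxides of arachidonic acid, were less well measured. Cyp2c38 spanned 7.16, 8.76 and 7.61 in phenobarbital hepatocytes, against 7.22, 8.05 and 8.73 in water hepatocytes. The spread within either group was wider than the difference between them, −0.16, whose interval ran from −1.26 to 0.95 (limma adjusted p = 0.944). The interval for Cyp2c38 thus reaches 0.95 in the positive direction. Cyp2c39 stayed at or below 5.71 on every array, with 5.48, 5.71 and 5.47 in phenobarbital hepatocytes against 5.43, 5.40 and 5.68 in water hepatocytes. It lay under the 40th percentile throughout and was not tested.

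Many members had their highest or lowest value on the same array of a group. Phenobarbital hepatocyte array 2 was the highest of its group for 7 of the 9 members and for 39.1% of the 8118 genes tested, and array 1 the lowest for 7 members and for 32.4% of genes. Cyp2c23 differed, highest in phenobarbital array 1 and lowest in array 3, and Cyp2c70 was highest in array 3. Among the water hepatocytes array 3 was the highest for 6 members and for 31.3% of genes, and array 1 the lowest for 6 members and for 37.4% of genes. Cyp2c38 and Cyp2c37 had the widest spread, with group ranges of 1.60 and 1.27 in phenobarbital hepatocytes and 1.51 and 1.18 in water hepatocytes. Cyp2c55 and Cyp2c70 went the other way in water array 1, where they were highest of their group. Whether the clock genes of that array or its handling had a part in these values was not tested.

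**Figure D3:**
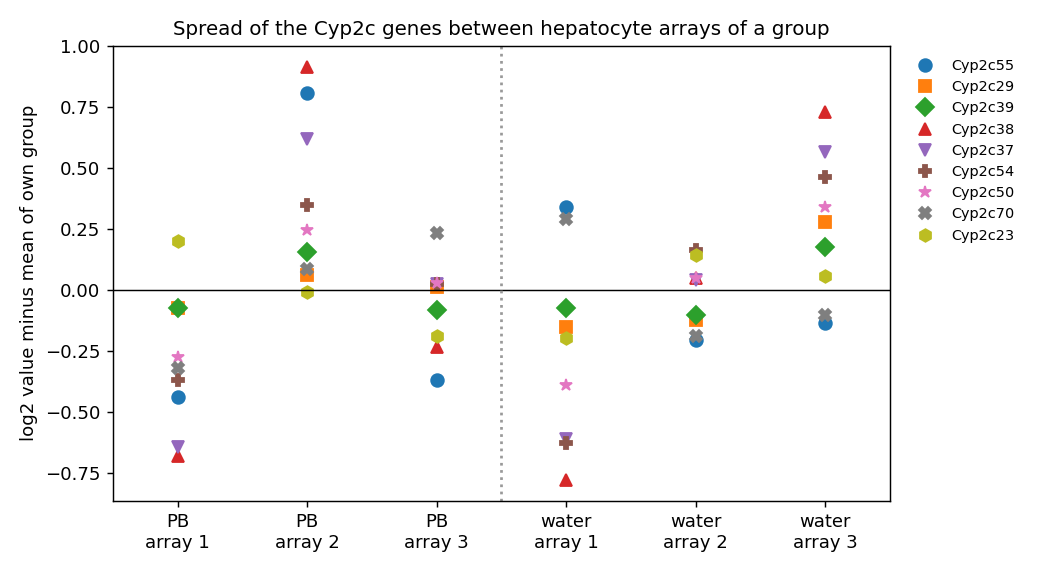
Each member's log2 value minus the mean of its own group, for the 3 phenobarbital and the 3 water hepatocyte arrays. Most members lay above 0 in phenobarbital array 2 and in water array 3, and below 0 in phenobarbital array 1 and water array 1, with Cyp2c38 the most spread and Cyp2c29 within 0.28 of its group mean.

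The upstream sequences of the genes are shown because neighbours that separated in hepatocytes can be set beside a near relative that did not. The promoter table used here, made from RefSeq (GRCm38.p6), held 8 start sites for 7 of the 9 members, with 2 for Cyp2c39, and the 250 bases before each were read on the strand of the gene. The windows of Cyp2c54 and Cyp2c23 were not analysed here. The windows lie at chr19:39006769-39007018 (+) for Cyp2c55, chr19:39286835-39287084 (+) for Cyp2c29, chr19:39463076-39463325 (−) for Cyp2c38, chr19:39992174-39992423 (+) for Cyp2c37 and chr19:40089429-40089678 (+) for Cyp2c50. Capitals mark matches, on either strand, to the nuclear receptor half-sites AGGTCA and AGTTCA, the forkhead (FOXA) motif TGTTTAC and the TATA box TATAAA.
Cyp2c55: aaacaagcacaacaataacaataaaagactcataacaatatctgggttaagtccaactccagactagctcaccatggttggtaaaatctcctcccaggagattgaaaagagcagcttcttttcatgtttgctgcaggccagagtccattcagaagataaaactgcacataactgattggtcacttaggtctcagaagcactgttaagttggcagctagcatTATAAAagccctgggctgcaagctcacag
Cyp2c29: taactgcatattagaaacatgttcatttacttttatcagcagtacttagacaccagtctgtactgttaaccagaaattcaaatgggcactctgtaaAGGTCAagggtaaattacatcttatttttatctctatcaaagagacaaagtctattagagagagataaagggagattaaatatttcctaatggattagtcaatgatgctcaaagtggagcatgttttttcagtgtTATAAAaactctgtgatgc
Cyp2c38: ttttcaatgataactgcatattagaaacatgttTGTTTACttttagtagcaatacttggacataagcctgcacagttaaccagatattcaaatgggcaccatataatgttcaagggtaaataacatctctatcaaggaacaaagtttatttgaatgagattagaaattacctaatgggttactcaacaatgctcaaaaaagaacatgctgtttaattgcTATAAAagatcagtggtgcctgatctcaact
Cyp2c37: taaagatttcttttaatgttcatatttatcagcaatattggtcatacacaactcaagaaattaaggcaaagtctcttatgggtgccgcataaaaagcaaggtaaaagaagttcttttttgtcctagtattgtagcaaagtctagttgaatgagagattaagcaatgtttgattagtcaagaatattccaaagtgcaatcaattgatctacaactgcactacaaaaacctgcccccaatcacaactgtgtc
Cyp2c50: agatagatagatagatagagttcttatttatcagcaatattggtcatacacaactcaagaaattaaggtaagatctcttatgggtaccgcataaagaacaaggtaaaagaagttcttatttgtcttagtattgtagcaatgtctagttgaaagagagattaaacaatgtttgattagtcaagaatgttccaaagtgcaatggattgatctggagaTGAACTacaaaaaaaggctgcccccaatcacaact
The windows of Cyp2c37 and Cyp2c50 were identical at 215 of 245 aligned bases (87.8%), and both genes had non-overlapping hepatocyte groups, with phenobarbital higher. Cyp2c29 and Cyp2c38 were identical at 187 of 228 aligned bases (82.0%), and the groups separated for Cyp2c29 and overlapped for Cyp2c38. The window of Cyp2c55 was 67.0% identical to those of Cyp2c29 (142 of 212 aligned bases) and Cyp2c37 (144 of 215). Other distant members were about as alike, with 65.5% for Cyp2c29 and Cyp2c70 and 65.0% for Cyp2c37 and Cyp2c70. The AGGTCA half-site, in 14.0% of 32851 windows of this length, was in those of Cyp2c29 (154 to 149 bases before the start), Cyp2c70 (74 to 69) and Cyp2c39 (25 to 20, 1 of its windows), of which only Cyp2c29 had separate hepatocyte groups. The AGTTCA half-site, in 11.8% of windows, was in those of Cyp2c50 (35 to 30 bases before the start, on the opposite strand) and Cyp2c39 (225 to 220, its other window). The FOXA motif was in the window of Cyp2c38 and in both windows of Cyp2c39, and in 3.17% of all windows. The TATA box, in 12.4% of windows, was present in Cyp2c55, Cyp2c29, Cyp2c38 and, on the opposite strand, Cyp2c70. The HNF4 motif CAAAGTCCA, in 0.384% of windows, was present in that of Cyp2c70, 64 to 56 bases before the start. A direct repeat of the half-sites with 4 bases between them (for example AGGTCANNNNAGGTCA, in any of 4 combinations) was in none of the 8 windows and in 8 of all 32851. The motif TTATGTAA, bound by Dbp and its relatives, was in none of the 8 and in 0.819% of all. A match or its absence here says only that these letters are or are not in these bases.

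Genes of the same pathway were described from lists of regulators, partners and other targets. Of 22 measured genes induced through CAR and PXR, 20 were tested in hepatocytes, 1 passed as higher (Cyp2b10) and none as lower, with a median difference of 0.20 beside −0.0038 over all genes. Cyp2b10 was at 13.06, 14.15 and 12.87 in phenobarbital hepatocytes, against 7.80, 8.01 and 7.72 in water hepatocytes, a difference of 5.52 (limma adjusted p = 0.00123). The glutathione transferases Gstm3 (1.26, SE 0.37), Gstm1 (0.74, SE 0.25) and Gsta2 (0.55, SE 0.24) and Alas1, which starts haem synthesis (−0.57, SE 0.26), had the next widest differences of the list and did not pass. The receptor CAR (Nr1i3) was at 8.43, 9.42 and 9.13 in phenobarbital hepatocytes, against 7.98, 9.57 and 9.40 in water hepatocytes, so its own level overlapped between the groups. PXR (Nr1i2) had a difference of 0.21 (SE 0.10) and did not pass.

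Among 18 measured receptors and hepatic regulators, 17 were tested and none passed. Bcl6, a repressor linked to sex differences in liver P450 genes, had 1.78 (SE 0.36), the factors Onecut1 and Foxa1 had −1.16 (SE 0.18) and −0.86 (SE 0.28), and Ppara had 0.53 (SE 0.27). Of 15 measured genes of the epoxy fatty acid pathway, 13 were tested and none passed. Ephx2, the soluble epoxide hydrolase that acts downstream of the Cyp2c epoxygenases, averaged 12.95 ± 0.28 in phenobarbital hepatocytes and 12.95 ± 0.08 in water hepatocytes (SD, n = 3 each). Its groups overlapped, and the difference had a 95% interval of −0.31 to 0.31. Acsl4, which activates arachidonic acid, had −0.27 (SE 0.07) and the epoxygenase Cyp2j6 −0.19 (SE 0.09). Ephx1, the microsomal epoxide hydrolase, had 0.16 (SE 0.17) and the fatty acid hydroxylase Cyp4a14 0.16 (SE 0.88). All 12 measured electron and haem partners were tested and none passed, with Alas1 the widest. Cyb5b and Cyb5a, forms of cytochrome b5, had −0.19 (SE 0.13) and 0.16 (SE 0.08), and Ppox, of haem synthesis, had −0.17 (SE 0.09). Por, the P450 oxidoreductase, had no probe set with a single gene symbol and was not analysed here.

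The genes whose hepatocyte pattern was closest to each called member were found by the root mean square difference over the 6 hepatocyte arrays, after centring each gene on its water mean. For Cyp2c29 they were Cyp2c50 (0.320), Rab30 (0.375) and Cyp17a1 (0.395), with fitted differences of 1.10, 1.17 and 0.94. Cyp17a1 encodes a steroid hydroxylase and lyase, and it was at 9.37, 9.53 and 9.31 in phenobarbital hepatocytes, against 8.34, 8.34 and 8.71 in water hepatocytes. For Cyp2c55 they were Cnmd (1.16), Cyp2c54 (1.17) and Bcl6 (1.27), at distances that show no close match. None of these genes passed the threshold on its own.

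The next comparison asked how the members stood in mesenchymal cells relative to hepatocytes of water mice. In all 9 members each mesenchymal array lay below each hepatocyte array, where 84.4% of the 9032 genes tested did not overlap, 41.6% lower and 42.8% higher. Of the 8 tested members 8 passed as lower in limma, where 82.7% of genes passed, 40.7% as lower and 42% as higher. A member could enter this test through its hepatocyte arrays alone, as Cyp2c23, Cyp2c37, Cyp2c38 and Cyp2c55 did, so the count adds nothing to the values. Cyp2c70 was at 7.92, 8.05 and 7.69 in water mesenchymal cells, against 13.61, 13.12 and 13.21 in water hepatocytes, a difference of −5.43 (SE 0.25). Cyp2c23 was at 5.76, 7.09 and 6.56 in water mesenchymal cells, against 12.18, 12.52 and 12.43 in water hepatocytes, a difference of −5.91 (SE 0.45). The limma adjusted p for Cyp2c70, which lay above the 40th percentile on all arrays, was 2.57e-09. Cyp2c29, Cyp2c50, Cyp2c37 and Cyp2c54 differed by −5.02, −5.39, −5.46 and −5.15, and the 16 hepatocyte markers by a median of −4.49. Cyp2c55 and Cyp2c38, which are lower in water hepatocytes to begin with, differed by −2.81 and −1.85. Differences from mesenchymal levels under the 40th percentile are rough and may be too small. In RNA of a whole fraction, fewer cells of a type and less RNA per cell cannot be told apart.

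In mesenchymal cells phenobarbital called no member. Of 9 members 4 were tested and 0 passed in limma, as did 0% of 8003 genes (232 genes had an unadjusted p under 0.05, or 2.9%). Cyp2c29 had the widest difference, with 11.58, 9.51 and 8.72 in phenobarbital mesenchymal cells, against 6.63, 7.44 and 7.51 in water mesenchymal cells. Every phenobarbital array lay at least 1.21 above every water array, and array 1 stood far above the other treated arrays. The difference was 2.74 (SE 0.71), with a 95% interval of 1.05 to 4.44, an unadjusted p of 0.00690 and a limma adjusted p of 0.998. Without phenobarbital array 1, whose hepatocyte markers were highest, it was 1.92. With the hepatocyte marker mean as a covariate, a fit added after seeing the data, it was 2.11, and neither value passed.

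Cyp2c50 and Cyp2c54 also separated in mesenchymal cells, by narrow margins. Cyp2c50 was at 10.32, 8.39 and 7.42 in phenobarbital mesenchymal cells, against 6.14, 7.22 and 7.31 in water mesenchymal cells. Cyp2c54 was at 8.97, 6.93 and 6.75 in phenobarbital mesenchymal cells, against 5.54, 5.94 and 6.58 in water mesenchymal cells. The lowest treated arrays lay 0.11 and 0.17 above the highest water arrays, and Cyp2c54 was tested through its phenobarbital arrays alone. Their differences were 1.82 (SE 0.73) and 1.53 (SE 0.61), each with a limma adjusted p of 0.998. Without phenobarbital array 1 Cyp2c50 had 1.02 and Cyp2c54 was no longer tested, and with the marker covariate Cyp2c50 had 1.15. The groups did not overlap in 3 of the 9 members, all higher, where 7.7% of the genes tested did not overlap, 4.09% higher and 3.61% lower.

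The other members overlapped between phenobarbital and water mesenchymal cells. Cyp2c37 was at 8.85, 6.52 and 5.47 in phenobarbital mesenchymal cells, against 4.52, 5.65 and 5.58 in water mesenchymal cells. Cyp2c55 was at 7.07, 5.44 and 4.96 in phenobarbital mesenchymal cells, against 4.78, 5.03 and 4.89 in water mesenchymal cells. In both genes phenobarbital array 1 alone exceeded the 40th percentile, and neither was tested. Cyp2c23 was at 8.24, 6.37 and 6.35 in phenobarbital mesenchymal cells, against 5.76, 7.09 and 6.56 in water mesenchymal cells. Cyp2c70 was tested, and its difference of 0.17 (95% interval −0.49 to 0.83) turned to −0.08 without phenobarbital array 1. Cyp2c38 lay between 5.92 and 6.26 and Cyp2c39 between 4.36 and 4.95 on all 6 mesenchymal arrays, below the 40th percentile.

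The same arrays were set beside their hepatocyte transcripts. As a linear share of the mean of the hepatocytes with the same treatment, Cyp2c29 reached 22.9%, 5.46% and 3.15% in phenobarbital mesenchymal cells, against 2.08%, 3.66% and 3.83% in water mesenchymal cells. The median share of the 16 hepatocyte markers was 10.2%, 5.37% and 4.06% in the same phenobarbital arrays, against 3.45%, 5.51% and 4.83% in the water arrays. Phenobarbital array 1 was highest for both, and the other phenobarbital arrays overlapped the water arrays in the marker median. Cyp2c50 had 12.0%, 3.14% and 1.60% in phenobarbital mesenchymal cells, against 1.42%, 2.99% and 3.19% in water mesenchymal cells, so that its groups overlapped on this scale. Cyp2c54 had 5.48%, 1.33% and 1.18% in phenobarbital mesenchymal cells, against 2.03%, 2.66% and 4.16% in water mesenchymal cells, and overlapped as well. For Cyp2c29 the shares overlapped too, with phenobarbital array 3 between the water arrays. Set against the 16 markers of the same array, the Cyp2c29 share exceeded 12, 9 and 6 of them in phenobarbital mesenchymal cells. In water mesenchymal cells it exceeded 4, 3 and 4. Albumin (Alb) had the highest share of the markers on every array, between 32.2% and 79.8%. Differences are compressed towards the top of the array's scale, so shares of very abundant transcripts may be too large and are not fractions of RNA. The part of hepatocyte RNA in the mesenchymal differences was not tested beyond these values.

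**Figure D4:**
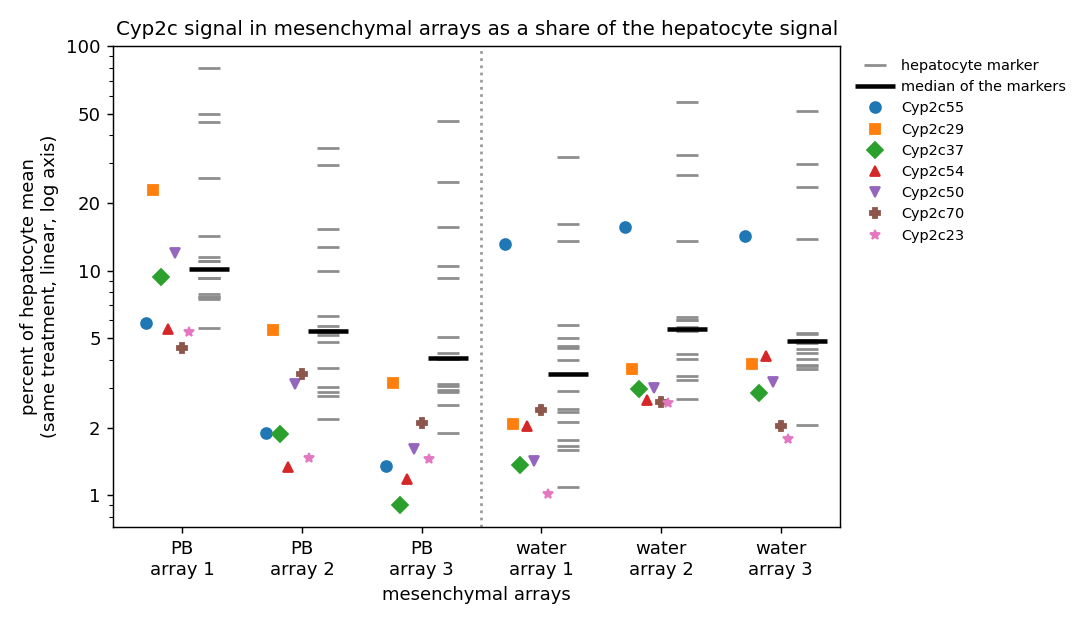
Signal of 7 Cyp2c genes in each mesenchymal array as a percent of the mean hepatocyte signal under the same treatment (linear values on a log axis), for 3 phenobarbital and 3 water arrays. Grey dashes are the 16 hepatocyte markers and the black dash is their median, which was highest in phenobarbital array 1 at 10.2%. Cyp2c55 in the water arrays (13.1% to 15.6%) compares mesenchymal levels under the 40th percentile with a low hepatocyte level. The water mesenchymal levels of Cyp2c54 and Cyp2c37 also lay under that percentile.

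Whether the phenobarbital difference itself differed between the cell populations was tested with all 12 arrays, as the mesenchymal minus the hepatocyte difference. None of the 8 tested members passed in limma, as did 0% of the 9032 genes, while 5.45% had an unadjusted p under 0.05. Cyp2c23, Cyp2c37, Cyp2c38 and Cyp2c55 entered this test, too, through their hepatocyte arrays alone. Cyp2c55 was the member with an unadjusted limma p under 0.05 (0.00291), which is therefore given as a description only. Its mean difference was 0.92 in mesenchymal cells and 3.46 in hepatocytes, and the fit gave −2.54 (SE 0.67; 95% interval −4.01 to −1.07; limma adjusted p = 0.870). Without mesenchymal phenobarbital array 1 it was −3.16 (limma adjusted p = 0.131). Its mesenchymal water level lay under the 40th percentile, which limits how small a difference could be seen there. Cyp2c29 had 1.25 with an interval of −0.46 to 2.96, and Cyp2c54 −0.46 with an interval of −2.09 to 1.16. These intervals are wide, so that neither equal nor unequal responses in the populations are shown for these genes. Cyp2c37 had 0.15 and turned to −0.80 without mesenchymal phenobarbital array 1.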

How the data were processed

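Arrays of 4 groups of 3 were compared, with groups and replicate numbers taken from the labels. The deposited values were log2 signals of 22626 probe sets for each of 12 arrays. Per the submitters' processing notes the authors used RMA (background correction, quantile normalization and probe summary). The sources used here give no version of it. Quantile normalization makes differences relative to the bulk of probe sets. The number of arrays limits the precision. No scan date or batch was at hand.

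Gene names came from the platform's annotation, with 1 symbol for 20380 probe sets, several for 691 and none for 1555. Of the first, 20351 were matched by Entrez number to RefSeq. The probe set with the highest mean stood for each gene. The package limma 3.58.1, run in R 4.3.3, fitted linear models (lmFit, then eBayes with trend) to every gene above the 40th percentile of the array on at least 3 arrays of the fit, with Benjamini-Hochberg adjustment over all genes tested. The phenobarbital comparisons used the 6 arrays of their population, the other fits all 12. Windows of 250 bases were aligned globally with Biopython 1.88. The fits were tested on simulated data. No 2 arrays were identical.

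The members and gene lists were chosen with earlier results of these data known. Named genes were the 9 members, list genes that passed or had the widest differences of their list (up to 4), Nr1i3, Nr1i2, Cyp2b10 and Ephx2, the 3 genes most alike to each called member, and clock and marker genes. Deviations from group means were correlated between same-numbered arrays. Between mesenchymal cells and hepatocytes of water mice they were 0.197, 0.175 and 0.149, each above the correlations with the other numbers. The labels do not state that these numbers pair samples, and 3 weak correlations are too few to show it. Between mesenchymal cells and hepatocytes of phenobarbital mice they were 0.0631, −0.0316 and 0.00954, which shows no such pattern. Between phenobarbital and water they lay between −0.276 and 0.143, and no 2 groups had the own number highest throughout. Alternatives changed the filter, probe set rule, scaling, prior, block, arrays in the fit and single arrays.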

Additional observations from a re-analysis of the deposited data

How the results depend on the processing

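Of the alternatives run for single members, 387 values kept direction and side of the threshold, 11 lost the call, 1 gained it and 14 changed sign. All 11 lost calls were those of Cyp2c29 and Cyp2c55 in hepatocytes, the only phenobarbital calls among the members. The 387 include members that were never called and the comparison of mesenchymal cells with hepatocytes, so they do not measure how stable those calls were. In hepatocytes the 4 genes with 2 members became 9 probe sets with every probe set in its own row, and 1 gene with 0 members with all 12 arrays in 1 fit. Leaving out single arrays gave 1 to 5 genes and 0 to 2 members there, and 0 to 1 genes for the difference between populations. With every probe set in its own row, 11682 probe sets differed between mesenchymal cells and hepatocytes, against 7471 genes. With the replicate number as a block, which does not pair phenobarbital with water arrays, the limma adjusted p was 0.0194 for Cyp2c54, 0.0194 for Cyp2c29 and 0.0519 for Cyp2c55 in hepatocytes. Between mesenchymal cells and hepatocytes of water mice the block changed no member's call. That block also grouped the phenobarbital arrays of both populations by number, for which no pairing was seen. Values that changed sign when single arrays were left out lay between −0.012 and 0.18 for Cyp2c23 and −0.62 and 0.21 for Cyp2c38 in hepatocytes, and −0.075 and 0.48 for Cyp2c70 in mesenchymal cells. For the difference between populations they lay between −0.80 and 0.89 for Cyp2c37, −0.25 and 0.57 for Cyp2c38, −0.19 and 0.75 for Cyp2c23, and −0.086 and 1.36 for Cyp2c50. The cause was not tested. Signal near background limits Cyp2c39 and the mesenchymal values. Compression near the top of the scale limits Cyp2c29, Cyp2c50, Cyp2c54 and Cyp2c70 and may limit Cyp2c23.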

Other observations

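Cyp2c65 and Cyp2c68, relatives of the 9 genes that also had a probe set with a single symbol, were not members. Cyp2c65, the neighbour of Cyp2c55, was at 4.60, 5.94 and 5.77 in phenobarbital hepatocytes, against 3.88, 4.15 and 4.17 in water hepatocytes. The groups did not overlap, with a difference of means of 1.37, but every array lay under the 40th percentile and the gene was not tested. Cyp2c68 was at 11.90, 12.52 and 11.99 in phenobarbital hepatocytes, against 12.26, 12.16 and 12.39 in water hepatocytes. Its groups overlapped, with a difference of means of −0.13.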
